A study of Homo sapiens with 12 samples.

Results

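The subject is the change with time in control cultures of HK-2, a line of immortalised human kidney tubule cells: 3 arrays of vehicle cultures at 48 h were set against 3 arrays of vehicle cultures at 12 h. The members were found by their titles and are 6 of the 12 arrays of a study that also exposed HK-2 cells to a compound labelled Fk for the same times. The series belongs to a search for expression signatures of kidney toxicity, and its vehicle cultures are the reference against which each Fk culture is read. All 4 groups (vehicle at 12 h, vehicle at 48 h, Fk at 12 h and Fk at 48 h, 3 arrays each) are of the same line, and the vehicle groups received the carrier of the compound without it. Wells received 700000 cells and 2 ml of medium 24 h ahead of the treatment. The medium held 5 mM glucose, 10 ng/ml epidermal growth factor, 36 ng/ml hydrocortisone and 5 µg/ml insulin. Treatment began at about 90% confluency, so RNA was taken 36 h after seeding in one group and 72 h after seeding in the other. The labels name the arrays biological replicates and say no more about separate cultures, so the p-values measure the spread between these arrays. Hours of vehicle exposure, hours in culture, cell density and the age of the medium differ together between the groups and cannot be told apart, and the labels do not say whether the medium was renewed.

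Cells that run short of an amino acid, or whose endoplasmic reticulum fills with unfolded protein, phosphorylate the translation factor eIF2. Most protein synthesis then slows while the transcription factor ATF4 is made and switches on genes for amino acid import, amino acid synthesis and tRNA charging. A neighbouring pathway, the unfolded protein response, runs through the sensors encoded by ERN1 and ATF6 and raises the chaperones of the endoplasmic reticulum. Cells that stop dividing lower the genes of DNA replication, which E2F factors drive, and those of mitosis. The mitotic genes are held back by the DREAM complex and switched on later in the cycle through the MYB-MuvB complex.

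Expression was measured on arrays with 54675 probe sets, and values are GCRMA values on the log2 scale, so a difference of 1 is a factor of 2. A gene was represented by the probe set with the highest mean over the 12 arrays, which gave 19775 genes. It was tested if it reached a value of 4 on at least 3 of the 6 vehicle arrays. That left 10647 genes. Markers of other cell types that stayed under this level lay at various distances from it, as CD14 at 2.18 to 2.21 and SLC12A1 at 3.66 to 3.83. A gene is said to have risen or fallen where limma's moderated test gave an adjusted p (Benjamini-Hochberg over all genes tested) under 0.05.

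The medians of the 6 arrays lay between 2.85 and 2.91. Epithelial markers were present: KRT8, KRT18, KRT19, CDH1, CDH2 and EPCAM reached the level of 4 on all 6 arrays. Of 14 proximal tubule markers, PAX8, DPP4 and CDH6 reached it on all 6. In contrast, 9 stayed under it on all 6, among them AQP1, LRP2, CUBN, SLC34A1 and SLC22A6, so most of the 14 were not seen. Markers of leukocytes (PTPRC, CD14, CD3E) and PDGFRB stayed under the level on all 6, and so did the endothelial VWF and CDH5, while PECAM1 reached it on 4 arrays, at 4.10 at most. The collecting duct markers SCNN1A (7.61 or more) and AQP2 (4.19 to 4.29) reached it on all 6. DCN (8.04 to 9.71) and LUM (8.19 to 9.96), which fibroblasts make in quantity, were high at both times with overlapping arrays. On an axis where the mean of the 12 h arrays is 0 and that of the 48 h arrays is 1, the 12 h arrays lay at 0.05, -0.02 and -0.03, and the 48 h arrays 1, 2 and 3 at 1.21, 1.05 and 0.73. Array 3 at 48 h thus stood nearest to the 12 h cultures, and its hybridization controls, which are added in equal amount to every array, averaged 11.79 against 10.79 to 11.04 on the other vehicle arrays. It was not the only array to stand apart. Array quality weights, lower for arrays that scatter more, were 0.27 for 48 h array 3 and 0.379 for 48 h array 1, against 1.09 to 3.5 for the rest. The 18S rRNA control read 9.28 and 9.01 on 48 h arrays 2 and 3, against 7.19 to 7.79 on the others. Counts that move by over 1.5 times without 48 h array 3 are given below with and without it. In RNA of whole cultures, fewer cells expressing a gene and less RNA per cell cannot be told apart.

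Of the 10647 genes tested, 3124 (29.3%) differed between the times, 1578 (14.8%) higher and 1546 (14.5%) lower at 48 h. Changes of at least 1 log2 unit numbered 588 upward (5.52%) and 477 downward (4.48%). The median size of a difference was 0.337. The median difference, 0.009, was set near 0 by the normalization across arrays and is given below as the base for the medians of lists. Of the genes tested, 44 reached the level of 4 on 48 h arrays alone (37 of them rose) and 17 on 12 h arrays alone (17 fell). Such genes passed the filter through the group where they are high, so their differences are sizes against values under that level. The 3 arrays of 1 time lay wholly above or below the 3 of the other for 5330 genes (50.1%). The arrays at 48 h scattered more than those at 12 h, with a median standard deviation of 0.215 against 0.124. The count depended on which array was in the fit. It was 4332 without array 3 at 48 h, 2316 without array 1 and 1519 without array 2 at 48 h, and 1344, 1253 and 1027 without arrays 1, 2 and 3 at 12 h. A core of 508 genes that rose and 399 that fell kept the call without each of the 6 arrays in turn. Below, a call is said to have held if it belongs to that core.

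The 15 largest rises included genes of the ATF4, amino acid transporter and protein folding lists, beside genes that none of these lists holds. INHBE, which encodes a subunit of activin E and is a known target of that pathway, read 5.67, 2.91 and 4.32 at 12 h and 12.29, 11.82 and 11.34 at 48 h, a difference of 7.52 (SE 0.67, adjusted p = 0.00369). One of its 12 h arrays lay under the level of 4, and the arrays of the 2 times were far apart. ATF3, a stress-induced repressor and activator of the ATF family, rose from 6.58, 5.18 and 6.53 to 11.35, 11.70 and 11.30, and DDIT3, the factor CHOP, from 8.70, 8.59 and 8.80 to 14.13, 13.72 and 12.82. CTH, which makes cysteine from cystathionine, rose by 4.49 log2 units (22.5-fold, SE 0.31). Next came SLC7A11 (3.91), the cystine importer, LURAP1L (3.77), ERN1 (3.64), the folding sensor IRE1, ALDH1L2 (3.64), a mitochondrial folate enzyme, and CHAC1 (3.57), which cleaves glutathione. PLA1A, a phospholipase, went from values under the level at 12 h (2.81 to 3.48) to 6.95 to 8.56 at 48 h, so the size of its rise is bounded by background at 12 h. ARG2, mitochondrial arginase, rose by 3.37, ANK2 by 3.26, SLC22A15 by 3.23 and BEX2 by 3.20. The call of each of these genes held without any 1 array. Averaging all probe sets of a gene, dim ones included, kept the calls but brought ERN1 to 1.31, ALDH1L2 to 1.41 and ANK2 to 1.20. The histone gene H2AC6 rose by 3.44 (adjusted p = 0.0256), but its call ended without 12 h array 2 or 3 or without 48 h array 1 or 2, with adjusted p up to 0.0838.

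The largest fall was that of TXNIP, the thioredoxin-binding arrestin that restrains glucose uptake: it read 8.29, 8.67 and 9.18 at 12 h and 3.46, 3.35 and 3.82 at 48 h, where all 3 arrays lay under the level of 4. The fall passed the test without each array, and its size is not known beyond the gap to background. SOX9, a transcription factor of progenitor and repairing tubule cells, fell from 9.26, 9.60 and 9.20 to 5.25, 5.64 and 5.64, with a wide gap between the 2 times. The other falls that held were those of MCM10 (-3.20), a replication fork protein, DPYSL3 (-2.85), ZBED2 (-2.80), FOSL1 (-2.73), a partner of c-Jun, SKP2 (-2.69), the ligase subunit that destroys the cell cycle inhibitor p27, CCNE2 (-2.67), cyclin E2, and LRRN4 (-2.61). FOSL1 lost its call with all 12 arrays in the fit (adjusted p = 0.0593). The other 6 falls among the 15 largest lost their calls when certain single arrays were left out. Their estimates stayed at -1.87 or lower without any 1 array. SLN, sarcolipin, read 10.08, 9.50 and 10.49 at 12 h and 3.20, 4.03 and 8.12 at 48 h, and TNFAIP6 read 8.23, 8.69 and 9.08 against 2.81, 2.91 and 6.32. In both, array 3 at 48 h lay between the 12 h values and the other 48 h values. The calls of SLN and TNFRSF19 ended without any array other than 48 h array 3 (adjusted p up to 0.101 and 0.0907). Those of TNFAIP6, ORC1 and THBS1 ended without any 12 h array or without 48 h array 2 (up to 0.0679, 0.0688 and 0.0946), and that of NAV3 without 12 h array 1 or 3 (up to 0.0631).

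**Figure D1:**
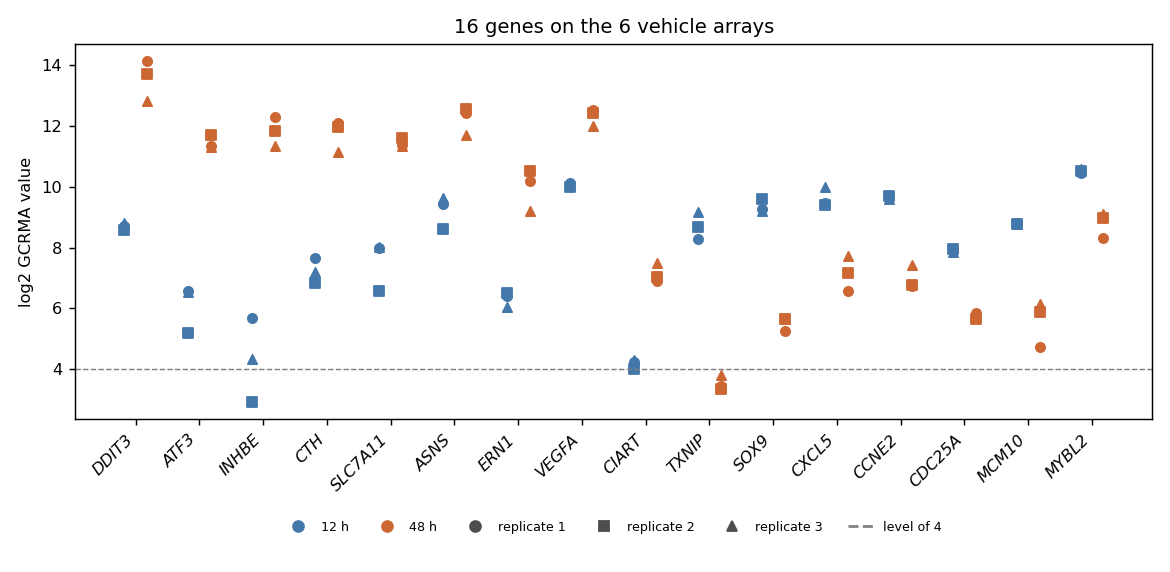
GCRMA log2 value of 16 genes on the 6 vehicle arrays, 12 h in blue and 48 h in orange, with circles, squares and triangles for replicates 1, 2 and 3 and a dashed line at the level of 4. The arrays of the 2 times do not overlap for any of the 16, and TXNIP at 48 h lies under the line.

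The integrated stress response gave the clearest group. Of 24 tested genes of ATF4 signalling and its targets, 23 rose and none fell, against 14.8% of all genes tested that rose, and the median difference was 1.7 against 0.009 for all genes tested. All 7 transcription factors and regulators rose. ATF4 itself read 12.24, 11.67 and 12.29 at 12 h and 13.13, 13.27 and 13.26 at 48 h, a 2.22-fold difference, so that the factor's own mRNA changed less than that of DDIT3 or ATF3. TRIB3, a pseudokinase that restrains ATF4 and CHOP, rose 3.73-fold, and PPP1R15A, the phosphatase subunit GADD34 that reverses eIF2 phosphorylation, 7.19-fold. CEBPB and CEBPG, dimer partners of ATF4 and CHOP, rose 3.00-fold and 3.51-fold. SESN2, which senses leucine and holds back mTORC1, rose by 2.22, and its 48 h arrays (10.32, 10.15 and 10.50) all lay above its 12 h arrays.

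Enzymes of amino acid synthesis rose together with these factors: 8 of 9 tested. ASNS, asparagine synthetase, read 9.44, 8.61 and 9.64 at 12 h and 12.43, 12.57 and 11.70 at 48 h, an 8.02-fold difference (log2 difference 3.00, SE 0.34, adjusted p = 0.00431). PSPH, the last enzyme of serine synthesis, read 10.01, 9.94 and 9.87 against 11.39, 11.75 and 11.29. PHGDH, the enzyme that opens the same pathway, differed by 1.28 and MTHFD2, of the mitochondrial folate cycle, by 1.21. No 48 h array of these 4 genes reached down to the 12 h arrays. All 8 tested effectors rose too, among them DDIT4, an inhibitor of mTORC1 (0.90), and CHAC1. FGF21, a hormone under ATF4 control, stayed under the level on all 6 arrays, between 2.79 and 2.81. The medians of the list on 48 h arrays 1, 2 and 3, each against the 12 h mean, were 1.76, 1.92 and 1.35. The number that rose was 18 without 12 h array 1, 2 or 3 or without 48 h array 2, and the same 18 genes kept the call throughout.

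Promoter sequence of 3 of these genes is shown because their windows hold the element by which ATF4 and its partners recognise amino acid response genes. Windows run from 250 bases before to 50 after the start site (RefSeq, GRCh38.p14) and lie at chr1:212565157-212565456 on the plus strand for ATF3, chr7:97872359-97872658 on the minus strand for ASNS and chr15:40953221-40953520 on the plus strand for CHAC1. Capitals mark matches to TGATGNAA, searched on both strands.
ATF3: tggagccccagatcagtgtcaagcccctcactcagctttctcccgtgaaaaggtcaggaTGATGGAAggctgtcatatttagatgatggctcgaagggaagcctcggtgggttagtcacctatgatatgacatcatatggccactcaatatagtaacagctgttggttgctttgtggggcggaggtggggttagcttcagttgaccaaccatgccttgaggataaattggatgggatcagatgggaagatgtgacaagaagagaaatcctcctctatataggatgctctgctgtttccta
ASNS: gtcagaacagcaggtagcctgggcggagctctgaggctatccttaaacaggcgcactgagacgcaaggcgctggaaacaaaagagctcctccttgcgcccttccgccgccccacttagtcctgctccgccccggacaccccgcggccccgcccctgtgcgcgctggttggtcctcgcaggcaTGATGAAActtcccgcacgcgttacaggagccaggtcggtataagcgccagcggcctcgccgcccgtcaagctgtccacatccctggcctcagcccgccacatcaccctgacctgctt
CHAC1: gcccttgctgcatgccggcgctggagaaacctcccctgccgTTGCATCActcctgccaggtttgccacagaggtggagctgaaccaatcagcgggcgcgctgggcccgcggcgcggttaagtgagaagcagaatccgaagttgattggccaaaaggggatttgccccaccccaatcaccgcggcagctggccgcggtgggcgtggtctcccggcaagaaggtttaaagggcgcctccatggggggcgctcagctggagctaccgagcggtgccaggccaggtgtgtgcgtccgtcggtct
The match starts 191 bases before the start site in ATF3 and 68 bases before it in ASNS, and in CHAC1 it lies on the other strand, 209 bases before it. Of 18 tested members with a window, these 3 (16.7%) held the letters, against 1.63% of the 8817 tested genes with a window. Of all tested genes with the letters, 27.1% rose at 48 h, against 14.5% of those without them. The match is a description of the sequence, and factor binding was not measured.

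The cytosolic aminoacyl-tRNA synthetases, which load amino acids onto their tRNAs, rose as a set with exceptions. Of 14 tested, 11 rose, against 14.8% of all genes tested, 1 fell and 2 did not pass, with a median difference of 0.8. AARS1, for alanine, read 9.55, 9.04 and 9.54 at 12 h and 12.02, 11.67 and 10.67 at 48 h. SARS1, for serine, rose by 1.58, CARS1, for cysteine, by 1.51 and YARS1, for tyrosine, by 1.33. These 4 kept their calls without each array, but YARS1 differed by 0.25 (adjusted p = 0.22) without the probe sets that can read several transcripts. GARS1, for glycine, rose by 1.63 and lost its call without 12 h array 3 (adjusted p = 0.0518). HARS1, for histidine, moved the other way, from 10.67, 10.57 and 10.64 to 9.82, 10.11 and 10.06, and its call ended without 12 h array 1 or 3 (up to 0.0537). KARS1, for lysine, differed by -0.22 and VARS1, for valine, by 0.07, and neither passed. The number that rose was 4, 5 and 6 without 12 h arrays 3, 2 and 1, and 6 and 5 without 48 h arrays 1 and 2.

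Among amino acid transporters, 8 of 11 tested rose, against 14.8% of all genes tested, and none fell (median 0.76). SLC7A11, which brings in cystine in exchange for glutamate, read 7.98, 6.58 and 8.02 against 11.38, 11.60 and 11.33. SLC3A2, its heavy chain and that of the leucine carrier, rose from 8.48, 8.55 and 8.86 to 11.56, 11.50 and 10.67, and SLC7A5, the leucine carrier, rose 3.46-fold. The 3 arrays at 48 h lay above the 3 at 12 h in each of these partners. Carriers of small neutral and cationic amino acids rose less: SLC7A1 by 1.00, SLC7A2 by 0.76, SLC38A1 by 0.73 and SLC38A2 by 0.72. Those 7 genes kept the call without each array. SLC1A4 rose by 1.15, but not without 12 h array 2 or 3 or 48 h array 2 (up to 0.0642). SLC1A5, the glutamine carrier, differed by 0.43 without passing, and SLC7A6 and SLC3A1 by -0.31 and -0.28. SLC6A9, a glycine carrier that was not tested because it reached the level on 2 arrays, read 2.18, 2.21 and 2.17 at 12 h and 5.77, 4.12 and 2.20 at 48 h.

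The unfolded protein response differed between the 48 h cultures. All 21 tested genes had a positive difference (median 1.4), against 51.2% of all genes tested. By the test 7 rose, against 14.8% of all genes tested. The list stood at 2.24, 1.58 and 0.28 above the 12 h mean on 48 h arrays 1, 2 and 3. Without array 3 at 48 h, 20 of the 21 rose. Without 12 h array 1 the count was 4, and it was 3 without 12 h array 2 or 3 or without 48 h array 1 or 2. ERN1 (6.39, 6.52 and 6.06 against 10.20, 10.51 and 9.19), XBP1, the factor whose mRNA it splices (9.78, 9.35 and 9.67 against 11.77, 11.92 and 11.27), and HERPUD1, of the pathway that disposes of misfolded protein (3.03), held without each array. HSPA5, the chaperone BiP, read 14.03, 13.22 and 13.80 at 12 h and 15.63, 15.56 and 14.54 at 48 h, a 2.95-fold rise. Its call ended without 12 h array 2 or 3 or 48 h array 1 or 2 (up to 0.0753). DNAJB9, a cochaperone of BiP, read 8.89, 8.34 and 8.59 against 12.66, 12.54 and 9.95 and rose 8.64-fold, with a call that ended without any array but 48 h array 3 (up to 0.0833). SDF2L1, picked here after its values were seen, shows the split at its widest: it read 8.34, 7.38 and 8.18 at 12 h and 12.23, 11.10 and 7.22 at 48 h, where array 3 lay under all of the 12 h arrays. ATF4 targets did not split in that way, since their median on the same array was 1.35.

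Other arms of protein care moved differently. Heat shock chaperones of the cytosol and mitochondria fell more often than they rose: 7 of 16 fell, against 14.5% of all genes tested, and 1 rose (median -0.34). DNAJA1, a partner of HSP70, read 13.30, 13.26 and 13.26 at 12 h and 12.30, 12.14 and 12.04 at 48 h. DNAJB1 fell by 1.03 and BAG3, a cochaperone that links HSP70 to autophagy, by 0.92 on the log2 scale, and these 3 kept their calls without each array. HSPA9, the HSP70 of mitochondria, rose by 0.93 but not without 12 h array 2 or 3. The number that fell was 4 without 12 h array 1, 3 without 12 h array 2 or 3 and 4 without 48 h array 2. Lysosomal genes rose in 9 of 22 cases, against 14.8% of all genes tested, and fell in 1 (median 0.42). ASAH1, acid ceramidase, read 11.01, 11.04 and 10.81 against 12.10, 12.11 and 11.86, ATP6V1H, of the proton pump, rose by 0.70, and SMPD1, acid sphingomyelinase, lay just under the level at 12 h (3.79 to 3.84) and at 4.63 to 5.02 at 48 h. SMPD1 passed the filter through the 48 h arrays alone. The calls of these 3 held without each array, although ATP6V1H differed by 0.24 (adjusted p = 0.051) as the mean of its probe sets, and the number that rose was 4 without 12 h array 3 or 48 h array 2, 6 without 12 h array 1 or 2 and 13 without 48 h array 3. Of 18 autophagy genes 7 rose, against 14.8% of all genes tested, and none fell (median 0.5), and 4 held: MAP1LC3B (1.23) and GABARAPL1 (1.19), which coat the autophagosome, UVRAG (0.85) and the receptor NBR1 (0.84). The receptor SQSTM1 rose by 0.91 without holding (up to 0.072). The number was 4 without any 1 of the 12 h arrays or without 48 h array 2.

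**Figure D2:**
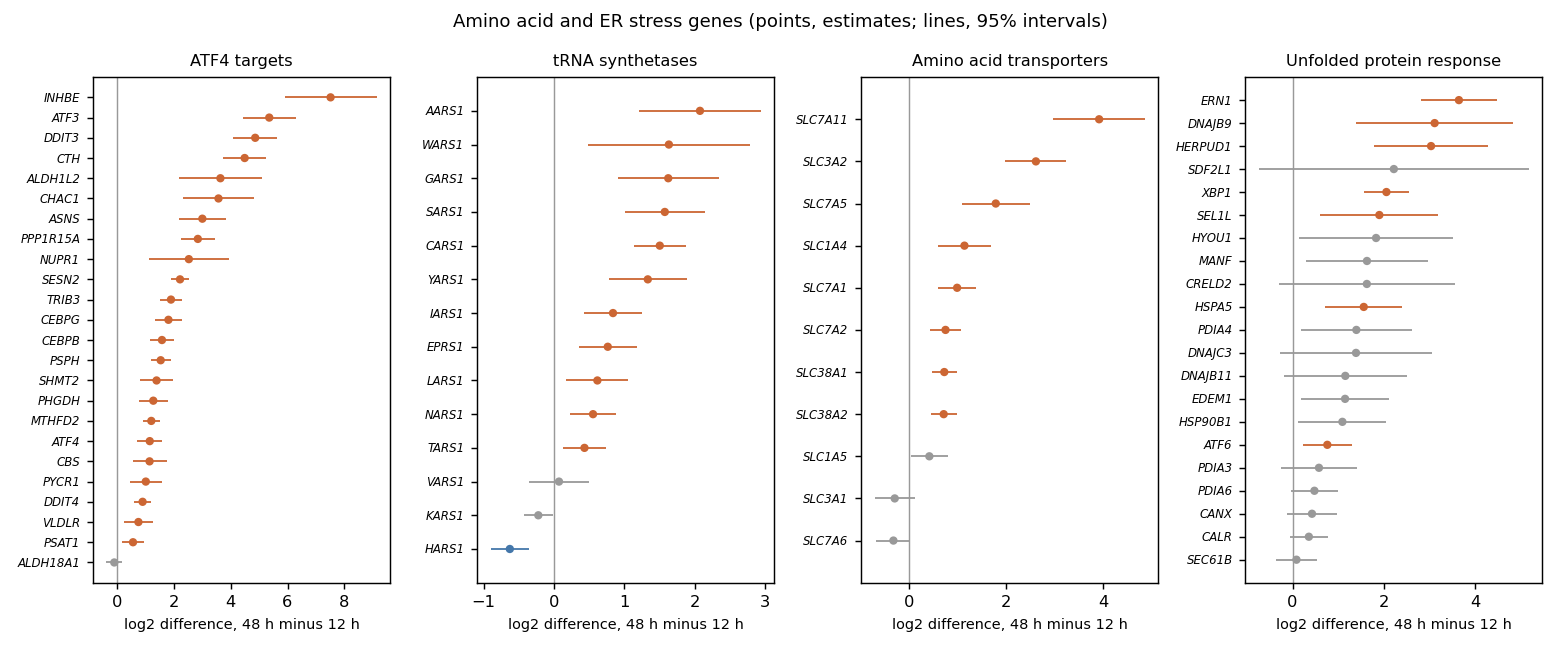
Difference between 48 h and 12 h (log2 units) of each tested gene in 4 lists, with its 95% interval, in orange where it rose, blue where it fell and grey where it did not pass. Nearly all intervals of the ATF4 targets lie right of 0, and the intervals of the unfolded protein response are the widest.

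Genes of cell division fell at 48 h. Of 46 tested genes of DNA replication and the G1/S step, 34 fell and none rose (median -1.09), and of 45 genes of mitosis and the G2/M step 37 fell and none rose (median -1.18), against 14.5% of all genes tested that fell. CDC25A, the phosphatase that frees CDK2 for S phase entry, read 7.90, 7.95 and 7.85 at 12 h and 5.85, 5.63 and 5.79 at 48 h, a 4.42-fold fall (log2 difference -2.14, SE 0.10, adjusted p = 0.00117). CCNE1, cyclin E1, read 7.97, 7.62 and 7.80 against 5.68, 5.57 and 5.66, and CCNE2 read 9.66, 9.69 and 9.58 against 6.73, 6.78 and 7.42. In each of these 3 regulators of S phase entry, all 48 h arrays lay well under the lowest 12 h array. Of proteins at the fork, MCM10 read 8.82, 8.76 and 8.76 at 12 h and 4.74, 5.89 and 6.13 at 48 h, FEN1, which trims Okazaki fragments, fell 2.71-fold, and POLA1 and POLA2, subunits of the primase-polymerase, fell 2.33-fold and 2.34-fold. E2F2, an activator of these genes, fell 1.77-fold. By role, 9 of 11 origin licensing genes fell, 14 of 20 helicase and fork genes, 5 of 5 genes of nucleotide supply and 6 of 10 regulators.

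CDC6, which loads the MCM helicase and was picked after its values were seen, was the 1 gene of that list with a positive difference: it read 10.23, 10.12 and 10.08 at 12 h and 11.23, 11.06 and 8.96 at 48 h. The median of the replication list on 48 h arrays 1, 2 and 3 was -1.51, -1.1 and -0.65 from the 12 h mean. Its count of falls was 41 without 48 h array 3. It was 17, 15 and 13 without 12 h arrays 1, 2 and 3, and 18 without 48 h array 2. In all, 13 of the 34 kept their calls in each of these fits, among them the 8 genes named above.

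Mitotic genes followed the same order of arrays, with list medians of -1.67, -1.19 and -0.63 on 48 h arrays 1, 2 and 3. MYBL2, the B-MYB factor that turns on G2 genes, read 10.44, 10.50 and 10.57 at 12 h and 8.30, 8.96 and 9.09 at 48 h. FOXM1, its partner in that task, read 9.09, 9.13 and 9.04 against 7.02, 7.47 and 8.10. Of the machinery, BIRC5 (survivin) fell by 1.69 on the log2 scale, KIF4A, a chromosome kinesin, by 1.41, NCAPG, of condensin, by 1.32, ESPL1 (separase) by 1.29, AURKB, the Aurora B kinase, by 1.23 and CDC20, which starts anaphase, by 1.11. These 8 genes kept their calls without each array, with adjusted p between 0.0326 and 0.0499 in the least favourable fit of each. The count of mitotic genes that fell was 10, 9 and 8 without 12 h arrays 1, 2 and 3 and 11 without 48 h array 2, while it was 32 and 43 without 48 h arrays 1 and 3. All 45 differences were negative.

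Promoters of 4 of these genes are shown for the elements that sort cell cycle genes into their phases. For the mitotic genes ESPL1 (chr12:53268049-53268348, plus strand) and CDC20 (chr1:43358731-43359030, plus strand), capitals mark the CHR letters TTTGAA and the CCAAT box. For CDC25A (chr3:48188368-48188667, minus strand) and POLA1 (chrX:24693668-24693967, plus strand), capitals mark the E2F letters TTTGGCGC or TTTCCCGC. All letters were searched on both strands of the same RefSeq windows, and no 2 of the marked elements overlap.
ESPL1: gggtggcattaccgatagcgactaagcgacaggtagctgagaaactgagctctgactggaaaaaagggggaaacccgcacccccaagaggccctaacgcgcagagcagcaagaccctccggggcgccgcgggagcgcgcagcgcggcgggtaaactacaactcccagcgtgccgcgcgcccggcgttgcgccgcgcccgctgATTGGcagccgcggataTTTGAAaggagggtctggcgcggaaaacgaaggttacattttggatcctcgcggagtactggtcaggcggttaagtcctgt
CDC20: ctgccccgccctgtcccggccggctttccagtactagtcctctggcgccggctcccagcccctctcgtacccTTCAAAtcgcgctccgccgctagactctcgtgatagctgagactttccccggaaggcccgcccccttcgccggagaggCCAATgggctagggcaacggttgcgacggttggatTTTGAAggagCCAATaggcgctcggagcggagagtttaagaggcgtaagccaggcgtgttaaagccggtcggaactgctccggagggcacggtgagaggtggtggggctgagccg
CDC25A: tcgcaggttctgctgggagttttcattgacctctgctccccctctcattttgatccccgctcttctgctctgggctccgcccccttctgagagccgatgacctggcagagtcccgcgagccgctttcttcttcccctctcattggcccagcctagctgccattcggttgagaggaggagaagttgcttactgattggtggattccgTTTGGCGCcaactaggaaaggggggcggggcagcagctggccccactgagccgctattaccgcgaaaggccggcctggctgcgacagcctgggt
POLA1: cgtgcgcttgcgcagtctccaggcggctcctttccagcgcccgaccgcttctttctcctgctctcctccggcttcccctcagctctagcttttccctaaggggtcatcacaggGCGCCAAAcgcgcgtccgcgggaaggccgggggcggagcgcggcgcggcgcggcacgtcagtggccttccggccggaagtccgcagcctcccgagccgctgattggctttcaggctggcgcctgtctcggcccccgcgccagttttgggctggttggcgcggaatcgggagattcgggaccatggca
In ESPL1 a TTTGAA lies 31 bases and a reversed CCAAT box 48 bases before the start site. In CDC20 a TTTGAA lies 65 bases and a CCAAT box 55 bases before it, with a further pair of matches upstream. The E2F letters lie 44 bases before the start site of CDC25A and, on the other strand, 137 bases before that of POLA1. Of 38 tested mitotic genes with a window, 26 (68.4%) held TTTGAA, against 9.5% of all tested genes with a window, and 27 (71.1%) held CCAAT, against 37.3%. Of 42 replication genes with a window, 18 (42.9%) held the E2F letters, against 3.86%. Among all tested genes, 25.9% of those with the E2F letters fell against 14.2% of those without, and 20.6% of those with TTTGAA against 14.0%.

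Regulators of the G1 phase went both ways. Of 18 tested, 7 rose and 4 fell, against 14.8% and 14.5% of all genes tested. CDKN1C, the inhibitor p57, read 8.34, 8.45 and 8.07 at 12 h and 9.38, 9.12 and 9.43 at 48 h, and CCNG2, a cyclin found in resting cells, read 10.82, 10.76 and 10.83 against 11.66, 11.71 and 11.46. Both held without each array. CDKN1A, the inhibitor p21, rose 2.27-fold, but not without 12 h array 2 or 3 or 48 h array 2 (up to 0.0728), and CDKN1B, p27, rose by 0.53, but not without 12 h array 1 or 3 (up to 0.0658). CCND1, cyclin D1, read 9.47, 9.85 and 9.69 against 6.74, 7.17 and 8.39 and fell 4.72-fold, a call that ended without 12 h array 2 or 3 (up to 0.0558), and CCND3 fell by 1.17 on the log2 scale, not so without 12 h array 3 (0.0521). The number that rose was between 2 (without 12 h array 3) and 8 (without 48 h array 3), and the number that fell was 0 without 12 h array 3.

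Of 15 tested genes of homologous recombination and the Fanconi pathway, 11 fell and 1 rose (median -0.76). The shares over all genes tested were 14.5% and 14.8%. EXO1, a nuclease that resects DNA ends, read 9.16, 8.93 and 8.88 against 6.64, 6.68 and 7.59 and held throughout. The list's falls numbered 5, 3 and 2 without 12 h arrays 1, 2 and 3 and 6 without 48 h array 2. H2AX, the histone that marks broken DNA, fell 2.62-fold, from 10.70, 10.72 and 10.46 to 8.98, 9.32 and 9.40, and held too. Of 19 p53 targets 8 rose and 3 fell, against 14.8% and 14.5% of all genes tested. GDF15, a stress hormone, read 11.18, 10.47 and 10.48 against 13.32, 13.33 and 12.86, and GADD45A, which restrains CDK1, read 10.10, 9.64 and 10.29 against 11.92, 12.29 and 12.45. SESN2 counts here as well, and TNFRSF10B, a death receptor that CHOP also drives, rose 1.67-fold, which did not pass with all 12 arrays in the fit. TP53I3, a p53 target that none of the stress lists holds, fell from 8.56, 8.42 and 8.44 to 7.52, 7.42 and 7.38. The 4 rises and the fall of TP53I3 held without each array, and the count of rises was 4 without 12 h array 2 or 3 and 5 without 48 h array 2. Of 13 BCL2 family genes, 3 rose, with BCL2L11, the cell death activator BIM, at 9.05, 9.01 and 8.87 against 9.73, 9.85 and 9.52. Its call held without each array but not with all 12 arrays in the fit. The other rises, of HRK and BCL2L2, ended without any array but 48 h array 3.

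**Figure D3:**
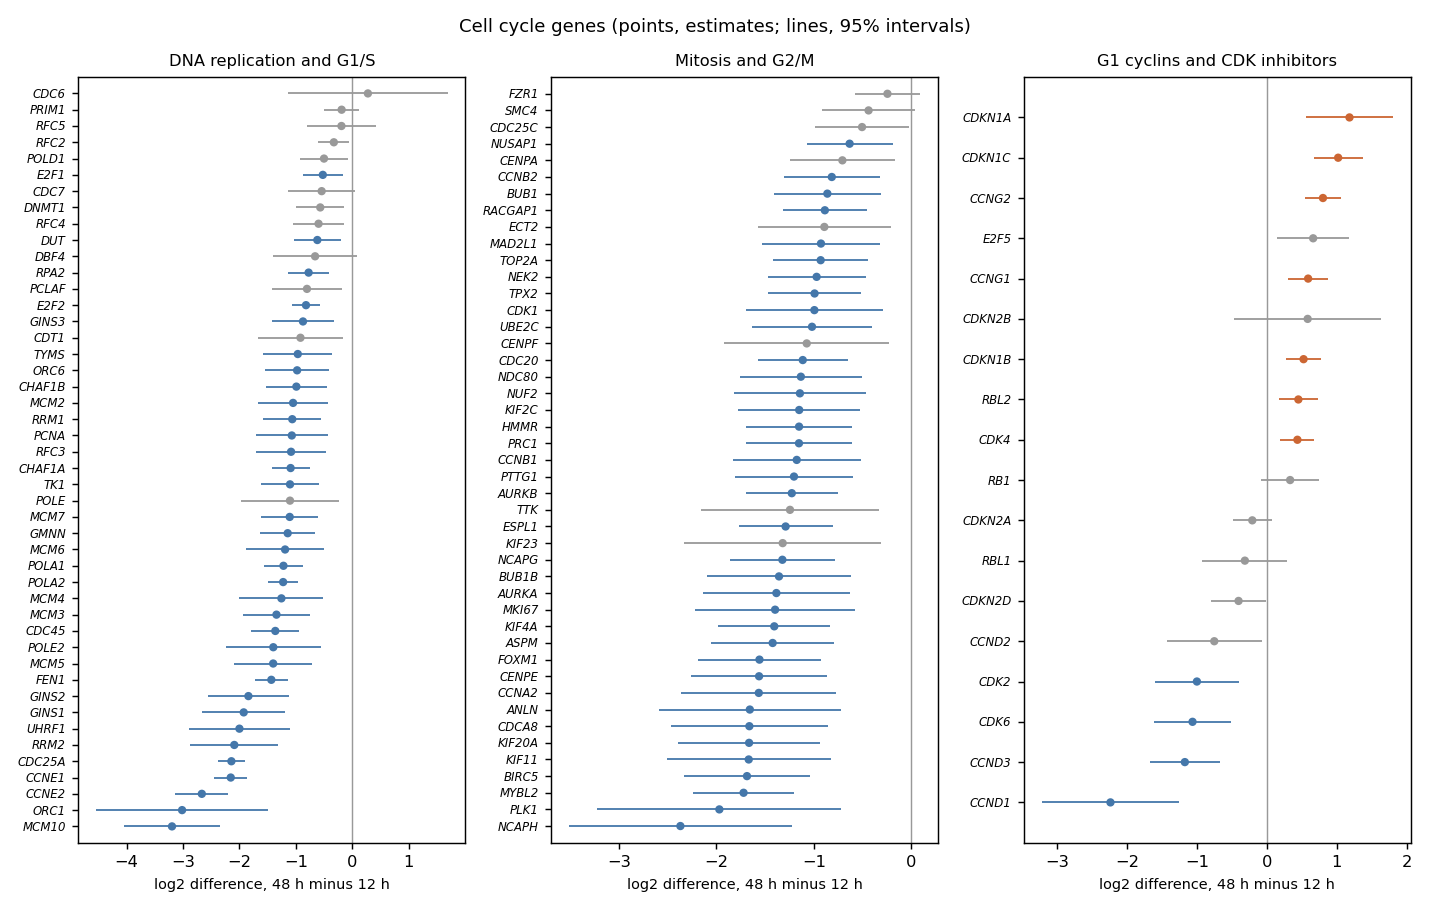
Difference between 48 h and 12 h (log2 units) of each tested gene of 3 cell cycle lists, with its 95% interval, in blue where it fell, orange where it rose and grey where it did not pass. In the replication and mitosis lists nearly every estimate lies left of 0, and in the G1 list estimates lie on both sides.

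Glucose carriers and a part of the HIF targets rose. SLC2A3, the glucose carrier GLUT3, read 8.75, 8.48 and 8.02 at 12 h and 9.89, 10.00 and 10.12 at 48 h, and SLC2A1, GLUT1, read 8.25, 7.83 and 8.08 against 8.98, 8.97 and 8.94. MLXIP, which senses glucose and activates TXNIP, fell by 1.03 on the log2 scale, though the call ended without any 1 of the 12 h arrays (up to 0.0694). Of the 19 tested genes of the glycolysis list, 4 rose, these 2 carriers included, 1 fell and the median was -0.22. The shares over all genes tested were 14.8% and 14.5%. Without 48 h array 3, 4 rose and 7 fell. Of 19 targets of the hypoxia factor HIF, 10 rose, against 14.8% of all genes tested, 1 fell and 8 did not pass (median 0.51). VEGFA, the vessel growth factor, read 10.13, 9.97 and 10.05 against 12.53, 12.42 and 12.00. NDRG1 rose 3.75-fold, ADM (adrenomedullin) 3.61-fold, KDM3A, a histone demethylase, 1.77-fold and PDK1, which diverts pyruvate from mitochondria, 1.66-fold. These held without each array, although ADM and KDM3A did not pass with all 12 arrays in the fit. EGLN1, the oxygen sensor that marks HIF for destruction, fell by 0.68 and lost its call without 12 h array 3. The count of HIF targets that rose was 6 without 12 h array 2 or 3 and 7 without 12 h array 1. Of 23 nuclear genes of oxidative phosphorylation 1 rose and 1 fell (median -0.12), neither call held, and 5 fell without 48 h array 3.

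Genes of insulin and FOXO signalling overlapped with those above: 7 of 16 rose and 1 fell, but GADD45A, CCNG2 and the fall of TXNIP alone held, and 2 rose without any 1 of the 12 h arrays. For the counts here, the base is 14.8% of all genes tested that rose and 14.5% that fell. Sterol genes gave 3 rises and 1 fall among 21 (median -0.14), and 4 falls without 48 h array 3. NPC1, which lets cholesterol out of lysosomes, read 11.37, 10.93 and 10.68 against 12.30, 12.47 and 12.30 and held. STARD4, a sterol carrier, rose by 1.22 and EBP fell by 1.16 on the log2 scale, and neither held (up to 0.0929 and 0.0617). HMGCS1 of the mevalonate pathway differed by -0.97 without passing (adjusted p = 0.143), but passed without 48 h array 3 and with array quality weights. Fatty acid synthesis and storage gave 2 rises and 3 falls among 15, none of which held. All 7 tested metallothioneins, the cysteine-rich proteins that bind zinc and copper, had negative differences with a median of -1.02, and 3 fell: MT1X (13.38, 13.55 and 13.67 against 11.95, 11.75 and 13.15), MT1M and MT2A. They share much of their sequence, so their probe sets can read each other's RNA, and array 3 at 48 h was the one nearest to the 12 h values in each. No call among them held, whereas 8 genes of the list of metallothioneins and zinc handling fell without 48 h array 3. Of 9 iron genes, SLC11A2, the iron carrier DMT1, rose by 0.95 and held without each array, although it differed by 0.27 (adjusted p = 0.14) without the probe sets that can read several transcripts, and TFRC, the transferrin receptor, fell by 0.62, though not without 12 h array 1 or 2.

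The counts of inflammatory genes stand against 14.8% of all genes tested that rose and 14.5% that fell. CXCL5, a neutrophil attractant, read 9.48, 9.39 and 10.01 at 12 h and 6.56, 7.18 and 7.74 at 48 h, a 5.52-fold fall. VCAM1, a leukocyte adhesion receptor, read 6.31, 6.31 and 7.27 against 5.16, 4.58 and 5.09. These were the 2 falls among 14 chemokine and cytokine genes, none of which rose, and both held, while 5 fell without 48 h array 3. IL6 differed by -1.58 without passing (adjusted p = 0.0879), but passed without 48 h array 3 and with array quality weights. Of 11 genes of NF-kB feedback, 8 had negative differences (median -0.43). TNIP1 and TNFAIP2 fell and neither held, and 3 fell without 48 h array 3. Of 35 interferon genes, 3 rose and 3 fell (median 0.01), against 5 and 5 without 48 h array 3, and OAS3 alone held, at 8.52, 8.73 and 8.36 against 6.74, 6.55 and 7.37. In the complement list 3 of 9 rose: CD55, which shields cells from complement, read 7.86, 7.59 and 8.11 against 9.31, 9.42 and 9.52, and CFB, factor B, came from 3.80, 4.37 and 3.79 to 6.68, 5.74 and 6.17. Both held without each array, while CLU (0.58) did not. CFB differed by 0.06 (adjusted p = 0.681) without the probe sets that can read several transcripts.

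Growth factor and matrix genes gave no common direction, and their counts stand against 14.8% of all genes tested that rose and 14.5% that fell. Of 14 immediate early factors 2 rose and 4 fell: ATF3 rose and FOSL1 read 8.63, 8.25 and 8.92 at 12 h and 5.08, 6.01 and 6.53 at 48 h. Of 20 genes of ERK feedback and the EGF receptor system 3 rose, EGFR among them by 0.77, and none held. Of 15 YAP targets 1 rose and 3 fell, and F3, tissue factor, held at 9.39, 9.31 and 9.49 against 7.50, 8.38 and 7.46. In the TGF-beta list 3 of 23 rose and 5 fell (median -0.12), and 9 fell without 48 h array 3. Beyond GDF15, which belongs to that family by structure, none held: SMAD3 fell by 1.62 and ID1 by 1.96 on the log2 scale, and both calls ended without 12 h array 1 or 3 or without 48 h array 2, among others. Of 30 matrix genes 3 rose and 7 fell (median -0.09). LAMB1, a laminin chain of the basement membrane, read 12.23, 12.14 and 12.02 against 13.11, 13.07 and 12.88, and PLAUR, the urokinase receptor, read 8.81, 8.53 and 9.15 against 6.47, 6.81 and 7.57. These held without each array, but PLAUR differed by -0.75 (adjusted p = 0.0593) without the probe sets that can read several transcripts. PLAT, the tissue plasminogen activator, fell by 1.78 without holding (up to 0.0949). Within the list of secreted growth regulators and chromatin proteins linked to senescence, STC2, stanniocalcin, rose from 6.47, 5.56 and 6.61 to 8.80, 9.32 and 9.44, and HMGA1 fell by 0.81. The other 5 calls in that list, 1 rise and 4 falls, ended without at least 1 array.

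Of 41 names in the list of proximal tubule transport and identity, 34 had a probe set and 11 were tested. Of these 6 rose, against 14.8% of all genes tested, and none fell (median 0.81). ENPEP, aminopeptidase A of the brush border, read 8.95, 8.61 and 8.54 at 12 h and 9.82, 9.93 and 9.94 at 48 h, and MIOX, the inositol oxygenase of the proximal tubule, read 8.60, 8.33 and 8.16 against 10.18, 10.04 and 9.50. Both held without each array. SLC4A4, the bicarbonate exit carrier, rose by 0.98 but not without 12 h array 3, ATP1B1, of the sodium pump, by 0.86 but not without 48 h array 2, and DAB2, an endocytic adaptor, by 0.89 but not without 12 h array 2 or 3 or 48 h array 2. The count was 3 without 12 h array 3 or 48 h array 2 and 4 without 12 h array 2. Of the proximal tubule markers seen on all arrays, PAX8, DPP4 and CDH6 differed by 0.26, 0.53 and -0.69 without passing, and CDH6 fell by 1.12 without 48 h array 3 (adjusted p = 0.0175). The members that passed the filter are those these cells express, and the rest stayed near background at both times.

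Injury markers gave 2 rises and 3 falls among 14, with SOX9 and VCAM1 held, and 6 falls without 48 h array 3. Over all genes tested, 14.8% rose and 14.5% fell in the reported fit. Junction genes gave 3 rises and 1 fall among 25, no call held, and 3 fell without 48 h array 3. CDH2, N-cadherin, read 9.80, 9.72 and 10.18 at 12 h and 8.82, 9.18 and 9.28 at 48 h and fell, a call that ended without any 12 h array or without 48 h array 2. CDH1, E-cadherin, read 6.77, 6.64 and 5.91 against 8.45, 7.57 and 6.89, and OCLN, occludin, read 8.31, 8.69 and 8.47 against 10.29, 9.89 and 8.80. Neither passed (adjusted p = 0.0773 and 0.0575), although their arrays did not overlap, and both passed without 48 h array 3. None of the 8 tested markers of other kidney cells passed, and their median difference was -0.12.

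Clock genes rose in part. With 2 times sampled, a change in level and a shift in clock phase cannot be told apart. Of 14 tested, 7 rose, against 14.8% of all genes tested, and none fell (median 0.69). NFIL3, a repressor in the output of the clock, read 9.39, 9.22 and 9.37 at 12 h and 11.26, 11.59 and 11.49 at 48 h. BHLHE41, the repressor DEC2, read 7.78, 7.82 and 7.61 against 9.76, 10.10 and 10.45, and NR1D2, REV-ERB beta, read 8.01, 7.56 and 7.84 against 9.46, 9.70 and 10.13. CIART, a repressor of the CLOCK and BMAL1 pair, read 4.23, 3.99 and 4.31 against 6.88, 7.02 and 7.47. In all 4 the arrays of the 2 times lay far apart, and 48 h array 3 was not the one nearest to 12 h. The same 4 held without each array, but CIART did not pass with all 12 arrays in the fit. DBP, CRY1 and TEF rose without holding. DBP reached the level on 48 h arrays alone and differed by -0.12 (adjusted p = 0.513) without the probe sets that can read several transcripts, and the number of rises was 4 without any 1 of the 12 h arrays. The core activators CLOCK, BMAL1 and NPAS2 differed by -0.38, 0.54 and 0.44 and did not pass. The promoter of CIART (chr1:150282304-150282603, plus strand, same RefSeq windows) is shown for its repeated E-box, the element that the CLOCK and BMAL1 pair binds. Capitals mark CACGTG, which reads the same on both strands.
CIART: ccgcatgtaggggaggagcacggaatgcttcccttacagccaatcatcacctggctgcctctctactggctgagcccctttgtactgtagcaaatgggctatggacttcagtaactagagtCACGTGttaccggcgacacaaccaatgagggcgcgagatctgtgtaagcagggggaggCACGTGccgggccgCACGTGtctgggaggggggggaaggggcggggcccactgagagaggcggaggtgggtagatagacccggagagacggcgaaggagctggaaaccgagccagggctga
The 3 matches lie 129, 71 and 57 bases before the start site. Of 14 tested clock genes with a window, 4 (28.6%) held CACGTG, against 10.8% of all tested genes with a window, and CIART was the 1 clock gene with 3 copies.

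Targets of the glucocorticoid receptor, which the hydrocortisone of the medium activates, went both ways: 2 of 12 rose and 4 fell (median -0.26). The shares over all genes tested were 14.8% and 14.5%. TSC22D3, GILZ, read 8.08, 7.88 and 8.25 against 10.26, 9.57 and 9.56, while SGK1, a salt transport kinase, read 12.88, 12.96 and 13.31 against 10.42, 11.36 and 11.24. Both held. FKBP5, a widely used readout of that receptor, fell by 0.49 and did not hold (up to 0.125). TIPARP, a target of the aryl hydrocarbon receptor that stress also raises, rose 2.01-fold and held.

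In the remaining lists few or no calls held. Over all genes tested, 14.8% rose and 14.5% fell. Of 26 genes of ribosome biogenesis 6 fell and none rose (median -0.25), of 13 keratin and epithelial surface genes 3 fell and none rose (median -0.27), and of 15 genes of fatty acid oxidation 2 rose and 1 fell, with no call held in any of these lists. Of 19 NRF2 targets 4 rose and 1 fell, SLC7A11 alone held, and 4 fell without 48 h array 3. Of 10 integrins 1 rose, and of 5 drug efflux and 5 cholesterol efflux genes 1 rose and 1 fell in each list, none of which held. Without 48 h array 3, 2 integrins fell. Smaller moves without that array were from 2 falls to 3 among histones, from 1 fall to 2 among HIF targets, FOXO genes and lysosomal genes, from 0 to 1 in replication and keratin rises and in BCL2, complement and ERK falls, from 0 to 1 among rises of the glucose-sensing list, from 2 rises to 3 among immediate early and glucocorticoid genes, and from 2 rises to 1 in fatty acid synthesis.

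**Figure D4:**
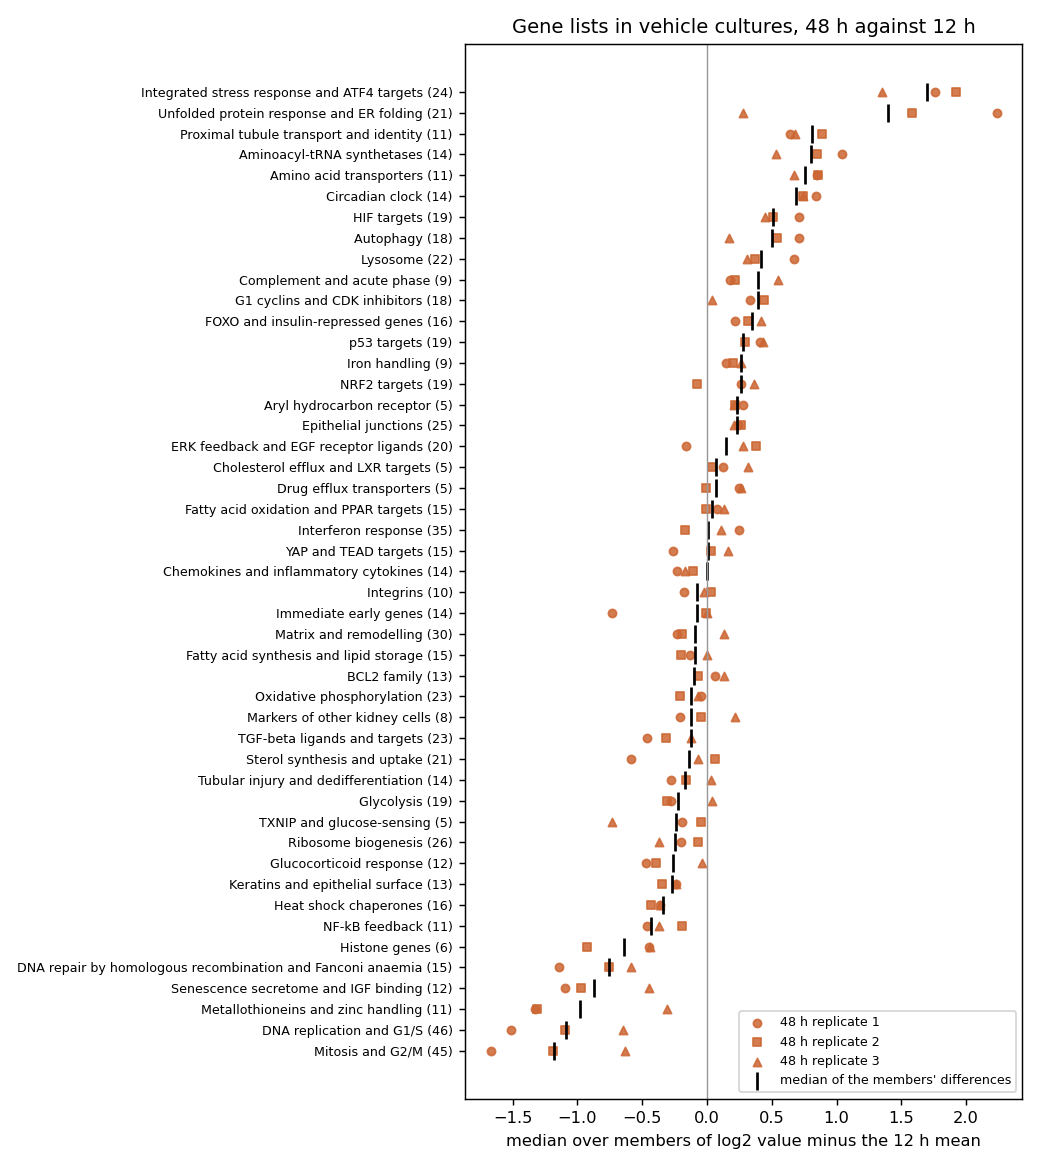
Black bars give the median difference between 48 h and 12 h (log2 units) over the tested genes of each list, with their number in brackets, and circles, squares and triangles give the median on 48 h replicates 1, 2 and 3 against the 12 h mean. The ATF4 targets and the unfolded protein response stand furthest to the right (1.7 and 1.4) and the mitotic and replication genes furthest to the left (-1.18 and -1.09).

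The Fk cultures, which share no array with the vehicle cultures, were taken at the same times. Of the 10647 genes, 833 (7.82%) differed between 48 h and 12 h under Fk, and 1332 (12.5%) without Fk 12 h array 3, which lay at 0.20 on the time axis above where the other Fk arrays at 12 h lay at 0.09 and 0.07. Of the 3124 genes that differed in vehicle, 2999 (96%) had the same sign under Fk, against 8623 (81%) of all genes tested, and 701 also passed there with the same sign (1041 without that array). The median difference of the genes that rose in vehicle was 0.85 in vehicle and 0.75 under Fk, and of those that fell -0.77 and -0.65. DDIT3 rose by 4.86 in vehicle and differed by 3.71 under Fk, CCNE2 by -2.67 and -3.15 and VEGFA by 2.26 and 1.92. Other large changes differed more in size between the treatments. INHBE was at 7.52 in vehicle and 4.23 under Fk, ATF3 at 5.36 and 2.98, SOX9 at -3.85 and -1.75 and FOSL1 at -2.73 and -0.51. TXNIP (-5.17 and -6.00) and ZBED2 (-2.80 and -4.07) changed more under Fk. The median of the ATF4 list was 1.7 and 1.22, that of the unfolded protein response 1.4 and 1.2, that of the replication list -1.09 and -1.33 and that of the clock list 0.69 and 0.85. Sterol genes were at -0.14 and -0.76. On that axis, the Fk arrays at 48 h lay at 1.23, 0.97 and 0.70, in the same order of replicate numbers as the vehicle arrays. Fk arrays 1, 2 and 3 at 48 h correlated with the same-numbered vehicle arrays at 0.9901, 0.9858 and 0.9866. For each, that was its highest correlation with any vehicle array. The shared signs and list medians are therefore not an independent check of the vehicle change.

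Whether the change with time differed between Fk and vehicle was tested gene by gene, as the Fk change minus the vehicle change over all 12 arrays. No gene passed with limma (0 of 10647). An unadjusted p under 0.05 was seen for 345 (3.24%), and for 459 (4.31%) without Fk 12 h array 3, where no gene passed either. These 2 fits ignore the replicate number, which vehicle and Fk arrays of 1 time share. With the replicate number within each time as a block, 699 of the 10647 genes had an unadjusted limma p under 0.05. No adjusted count is given here for that fit, so the absence of calls refers to the 2 fits without the block. SLC2A1, the gene with the smallest p, changed by 0.91 in vehicle and 2.04 under Fk, a difference of 1.14 (95% interval 0.69 to 1.58, adjusted p = 0.9956). LHX6 changed by -0.85 in vehicle and 0.40 under Fk, and AXIN1 by 0.11 and 0.92. In the other direction, MTERF2 changed by -0.20 and -1.23, WFDC21P by 1.36 and 0.14, and JUP, plakoglobin, by 0.11 and -0.68. With intervals of that width, the absence of calls does not show that the treatments act alike.

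**Figure D5:**
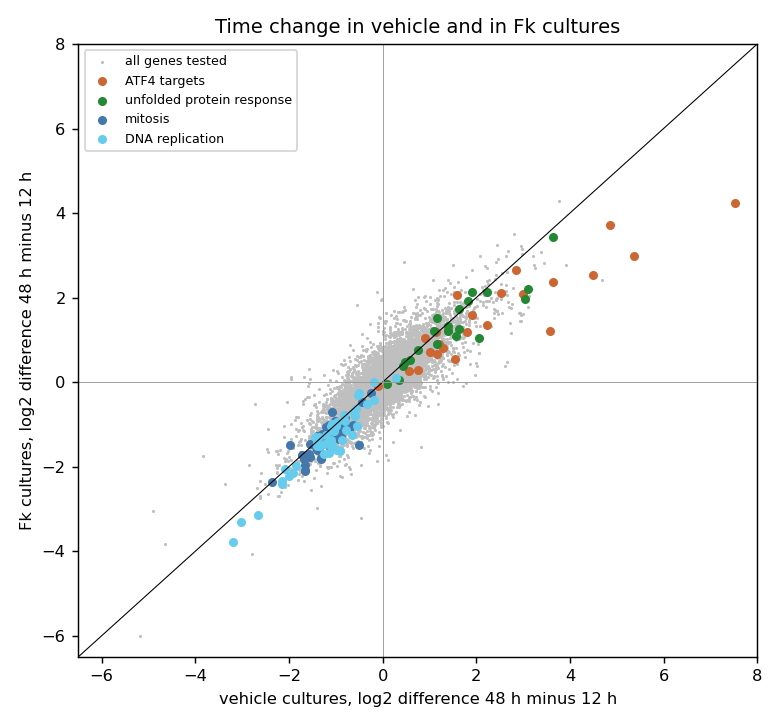
Difference between 48 h and 12 h (log2 units) under Fk against the same difference in vehicle for each of the 10647 genes tested, with the line of equal change. Most genes that rose or fell in vehicle lie on the same side of 0 under Fk (2999 of 3124).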

How the data were processed

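The authors deposited GCRMA values on the log2 scale, background-corrected and normalized together across arrays, per the submitters' processing notes as far as the name GCRMA states; the software version is not given in the sources used here. Probe sets were named through the platform annotation: 41097 of 54675 had 1 gene symbol, 1801 several and 11777 none, and only the first were used. The vehicle arrays were fitted with limma 3.58.1 in R 4.3.3 (lmFit and eBayes, 48 h minus 12 h, two-sided, Benjamini-Hochberg). The 2 vehicle groups alone entered the fit, since Fk 12 h array 3 stood apart; the change under Fk was set against that in vehicle on all 12 arrays. The fit was run on simulated arrays with known changes as a check of the code, and no rates from that run are given here. With 3 arrays a group, precision is limited by their number, and the median 95% interval reached 0.368 to either side. Replicate numbers do not pair the times.

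Named genes are the 15 largest rises and falls among genes past the threshold with non-overlapping arrays, up to 8 members with the smallest p in each list, the 3 smallest p in each direction for the treatment difference, and the cell markers. Outside that rule, ATF4, ASNS, CEBPB, CEBPG, PHGDH, MTHFD2, FGF21, KARS1, VARS1, SLC1A5, SLC7A6, SLC3A1, SLC6A9, SDF2L1, CDC6, BMAL1 and NPAS2 were chosen after their values were seen. Members and lists were chosen with earlier results of these data known. Alternatives covered the arrays in the fit, the filter, the probe set, the normalization and the threshold. Promoter windows are from RefSeq; genes without one are named only.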

Additional observations from a re-analysis of the deposited data

How the results depend on the processing

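The count of 3124 genes was recomputed under 21 other settings, 6 of which left out 1 vehicle array and gave between 1027 and 4332. It was 1763 with no filter on low values, 5713 with array quality weights, 762 at an adjusted p under 0.01 and 1065 with a difference of at least 1 log2 unit required. With the replicate number as a block the count was 2324, and 2189 of these were called with the same sign in the reported fit; the deviations of same-numbered arrays correlated at 0.031, -0.028 and 0.054, so the numbers do not pair the times. With all 12 arrays in the fit it was 2313. Of 194 tested genes named, 166 passed and 117 of these did so without each vehicle array in turn. For some genes that did not pass, signs turned. Leaving out 1 vehicle array in turn moved DCN between -0.54 and 0.31, KRT19 between -0.17 and 0.04, LUM between -0.84 and 0.05 and VARS1 between -0.03 and 0.21. CDC6 was -0.13 and -0.05 without vehicle 48 h array 1 or 2, and KRT19 0.03 with array weights. DBP, 2.11 in the reported fit, was -0.12 without the probe sets that can read several transcripts. As the mean of all probe sets, further named genes kept their calls with differences smaller by over 1.5 times: ASNS (1.51), XBP1 (1.03), HERPUD1 (2.00), GDF15 (1.00), TSC22D3 (0.89), CFB (1.14), PSPH (1.01), YARS1 (0.79), NPC1 (0.44), SLC2A1 (0.46), CCNG2 (0.45), NBR1 (0.43), KDM3A (0.42), PDK1 (0.42), TNFRSF10B (0.49), CCNE1 (-1.08), DPYSL3 (-1.88), OAS3 (-1.06), POLA2 (-0.53) and HMGA1 (-0.50), while BCL2L11 (0.32) lost its call. Without probe sets that can read several transcripts, MCM10 was -1.86, BIRC5 -2.96 and ARG2 2.18. The median of the tubular injury list was 0.01 with no filter and 0 without those probe sets, and that of the iron list -0.06 without them. The cause of these changes was not tested. Probe sets near background, and 3 arrays per time, limit what small differences can show.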

Other observations

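The gene families below were chosen after their values were seen, so their counts are descriptions. Of 8 tested host genes of small nucleolar RNAs, whose spliced RNAs are not translated into long proteins, 5 rose, 2 fell and the median difference was 1.15. The shares over all genes tested were 14.8% and 14.5%. SNHG17 read 8.82, 8.66 and 9.06 at 12 h and 11.04, 11.10 and 10.30 at 48 h, and EPB41L4A-AS1 rose by 1.98, SNHG32 by 1.48 and ZFAS1 by 1.06. DANCR and SNHG19 went the other way, with differences of -1.10 and -0.52. The 53 tested proteins of the cytosolic ribosome did not move with them (0 rose, 1 fell, median 0.04).

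Several families of protein assembly and transport fell in part, against 14.5% of all genes tested that fell. The COPII coat and translocon genes did not, with 2 rises and 1 fall among 32 (median 0.15). Of 33 proteasome subunits 13 fell and 0 rose (median -0.37, PSMC3 -0.84), of 18 tubulins 9 fell and 0 rose (median -0.76), of 7 chaperonin subunits 5 fell (median -0.4, CCT3 -0.71) and of 24 nucleoporins 9 fell (median -0.38). TUBB6 read 12.61, 12.63 and 12.72 at 12 h and 10.71, 10.96 and 11.60 at 48 h, and NUP62 read 9.92, 9.91 and 9.87 against 8.33, 8.54 and 8.76. Tubulin probe sets can share reads of near-identical members. Of 75 mitochondrial ribosomal proteins 19 fell and 2 rose (median -0.25). Of 15 mitochondrial aminoacyl-tRNA synthetases 0 rose and 1 fell, unlike their cytosolic counterparts, of which 11 of 14 rose; the difference between the families was not tested. Of 16 V-ATPase subunits, which acidify lysosomes, 5 rose, against 14.8% of all genes tested, and 0 fell, with ATP6V1C1 at 0.92 and ATP6V1A at 0.71.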
